A study of Rattus norvegicus with 23 samples.

Results

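Fos, Egr1, Atf3 and Stat3 encode transcription factors of the immediate early and stress response, and their transcripts were followed through 23 rat RNA-seq libraries of repaired median nerve and healthy tissue. The genes were chosen by Ensembl identifier from a list that also supplied their symbols (Atf3 ENSRNOG00000003745, Fos ENSRNOG00000008015, Egr1 ENSRNOG00000019422, Stat3 ENSRNOG00000019742). All 4 were found among the 32545 identifiers of the count table. All 4 passed the filter on low counts in the fit over the 23 libraries (15954 genes tested) and in the fit over the 12 repaired nerves (15036 genes tested), and they had between 235 and 30868 counts in every library.

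The rats were adult females labelled WT. An 8 mm defect was made in the median nerve of the operated rats, and the kind of bridge that the design text names is a vein of 10 mm packed with skeletal muscle (muscle-in-vein, MIV). The groups were MIV day 7 and MIV day 3 (n = 3 each), labelled as repaired after the cut and MIV, and EV day 7 and EV day 3 (n = 3 each), labelled as repaired after the cut with MIV not named. EV is not spelled out, and what bridged the gap in that group is not stated. Untreated healthy adductor muscle (n = 3), epigastric vein (n = 3) and median nerve (n = 5) made up the rest. The labels name neither the animal nor a batch for any library. Each p-value therefore refers to the spread between libraries of a group, which may be technical.

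Immediate early genes are transcribed within minutes of a stimulus without new protein synthesis, and their mRNAs are short-lived. Fos forms the AP-1 factor with Jun proteins, Egr1 is a zinc finger factor, and Atf3 is a leucine zipper factor of the ATF/CREB family that is induced by many stresses and widely used as a marker of injured neurons. Stat3 is the factor that Janus kinases phosphorylate below receptors of the interleukin 6 family, so its mRNA level does not report its activity. The cell bodies of the axons in a nerve lie outside it, and most of the RNA of a nerve piece comes from Schwann cells, fibroblasts, vessels and immune cells.

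The RefSeq promoter table (assembly GRCr8) held 2 of the 4 members by symbol, Egr1 and Stat3. Each sequence runs from 250 bases before to 50 bases after the start of the gene, and both are shown because the results below set Egr1, whose level varied widely between libraries, against Stat3, whose level was steady. Capitals mark matches to 6 motifs searched on both strands.
Egr1 promoter (chr18:26736828-26737127, plus strand): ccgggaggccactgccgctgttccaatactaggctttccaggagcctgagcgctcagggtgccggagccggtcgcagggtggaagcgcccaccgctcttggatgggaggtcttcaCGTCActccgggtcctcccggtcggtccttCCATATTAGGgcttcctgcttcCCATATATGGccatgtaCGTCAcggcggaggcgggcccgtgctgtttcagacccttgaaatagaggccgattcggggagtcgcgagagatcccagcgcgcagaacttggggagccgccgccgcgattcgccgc
Stat3 promoter (chr10:86363310-86363609, minus strand): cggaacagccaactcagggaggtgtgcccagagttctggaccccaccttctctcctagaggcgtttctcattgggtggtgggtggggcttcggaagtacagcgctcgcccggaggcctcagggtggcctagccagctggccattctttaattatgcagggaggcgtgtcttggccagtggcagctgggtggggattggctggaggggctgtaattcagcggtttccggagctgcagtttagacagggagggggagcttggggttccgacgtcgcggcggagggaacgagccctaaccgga
The Egr1 window held 2 CArG boxes, the sequence bound by serum response factor, at bases 146 to 155 and 168 to 177 counted from the 5′ end of the window. CArG boxes occurred in 1.64% of the 33469 promoters of this length in the table. It also held 2 matches to TGACG, the core of the cyclic AMP response element, on the opposite strand at bases 116 to 120 and 185 to 189, a motif present in 21.2% of promoters. The matches did not overlap. The whole element TGACGTCA (1.83% of promoters), the AP-1 motif TGANTCA (7.33%), the EGR motif GCGNGGGCG (4.98%) and the STAT motif TTCNNNGAA (8.87%) had no match in the Egr1 window, and none of the 6 motifs had one in the Stat3 window. A match is a description of letters and not a binding site.

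Levels are given as CPM, each gene's counts divided by the TMM-scaled library size, and calls are from edgeR's quasi-likelihood test with Benjamini-Hochberg adjustment over all genes tested and a threshold of 0.05. Library totals ran from 12504035 to 17314324 counts. Within groups the median correlation of log2 CPM between libraries was at least 0.96, except in MIV day 7 (0.927, 0.889 and 0.913 for replicates 1, 2 and 3), where replicate 2 had 499 genes at least 4-fold above both other libraries and 594 at least 4-fold below them, none of the 4 members among either. The tissue labels could not be set against named marker genes, because 0 of the 32545 identifiers matched a symbol in the reference gene table, and the other immediate early, stress and interleukin 6 genes were not analysed here for the same reason. In bulk tissue, more cells of a type and more RNA per cell cannot be told apart.

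Fos had the widest range of the 4 genes, from 17.0 CPM in healthy nerve replicate 1 to 1924 CPM in EV day 7 replicate 1. In MIV day 7 nerves it stood at 28.1, 741 and 557 CPM in replicates 1, 2 and 3, and in MIV day 3 nerves at 274, 325 and 112 CPM. In EV day 7 nerves it stood at 1924, 393 and 323 CPM, and in EV day 3 nerves at 592, 205 and 246.5 CPM. MIV day 7 replicate 1 thus lay below every other repaired library, and EV day 7 replicate 1 above every other. Healthy muscle held 79.7, 246 and 308 CPM, healthy vein held 83.2, 76.9 and 127 CPM, and the 5 healthy nerves ran from 17.0 to 284 CPM with a median of 101.5 CPM. All 3 EV day 7 libraries lay above all 5 nerves, while the libraries of the other repaired groups overlapped with them.
By group mean, Fos ran in the order EV day 7 (880.0 CPM ± 905), MIV day 7 (442 CPM ± 370.1), EV day 3 (348 CPM ± 212), MIV day 3 (237 CPM ± 111), muscle (211 CPM ± 118), nerve (120.4 CPM ± 106, n = 5) and vein (95.8 CPM ± 27.5; SD, n = 3 unless given), and each group overlapped with its neighbours in this order.

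Relative to healthy nerve, Fos was called higher in EV day 7 nerves, with a log2 fold change of 2.87 ± 0.85 (SE; edgeR adjusted p = 0.00943). That call rested on 1 library: without EV day 7 replicate 1 the log2 fold change was 1.57 and the adjusted p 0.163. The same 5 nerves served as the comparison for every repaired group. Against them the log2 fold change was 1.88 ± 0.84 in MIV day 7 (adjusted p = 0.0667), 0.98 ± 0.84 in MIV day 3 (adjusted p = 0.326) and 1.53 ± 0.84 in EV day 3 (adjusted p = 0.122), none of which passed. Without MIV day 7 replicate 1 the MIV day 7 value was 2.43 and passed (adjusted p = 0.0143). Without healthy nerve replicate 2, the nerve with the most Fos, MIV day 7 passed at 2.48 (adjusted p = 0.025) and EV day 3 at 2.13 (adjusted p = 0.0434). Relative to healthy vein, Fos was called higher in EV day 7 nerves (log2 fold change 3.20 ± 1.04 SE, edgeR adjusted p = 0.027). The call was lost without EV day 7 replicate 1 (1.90, adjusted p = 0.188), without any 1 of the 3 vein libraries (adjusted p = 0.0565 to 0.0932) and with no filter on low counts (adjusted p = 0.051). MIV day 7 (2.21, adjusted p = 0.0793), MIV day 3 (1.31, adjusted p = 0.27) and EV day 3 (1.86, adjusted p = 0.123) did not pass against vein, although all 3 EV day 3 libraries lay above all 3 vein libraries. With DESeq2, MIV day 7 against vein passed at 2.22 (adjusted p = 0.0499), and it passed without MIV day 7 replicate 1 at 2.76 (adjusted p = 0.0211). When the 2 groups alone were fitted, MIV day 3 and EV day 3 passed against vein at 1.29 and 1.85 (adjusted p = 0.0309 and 0.0125).

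**Figure D1:**
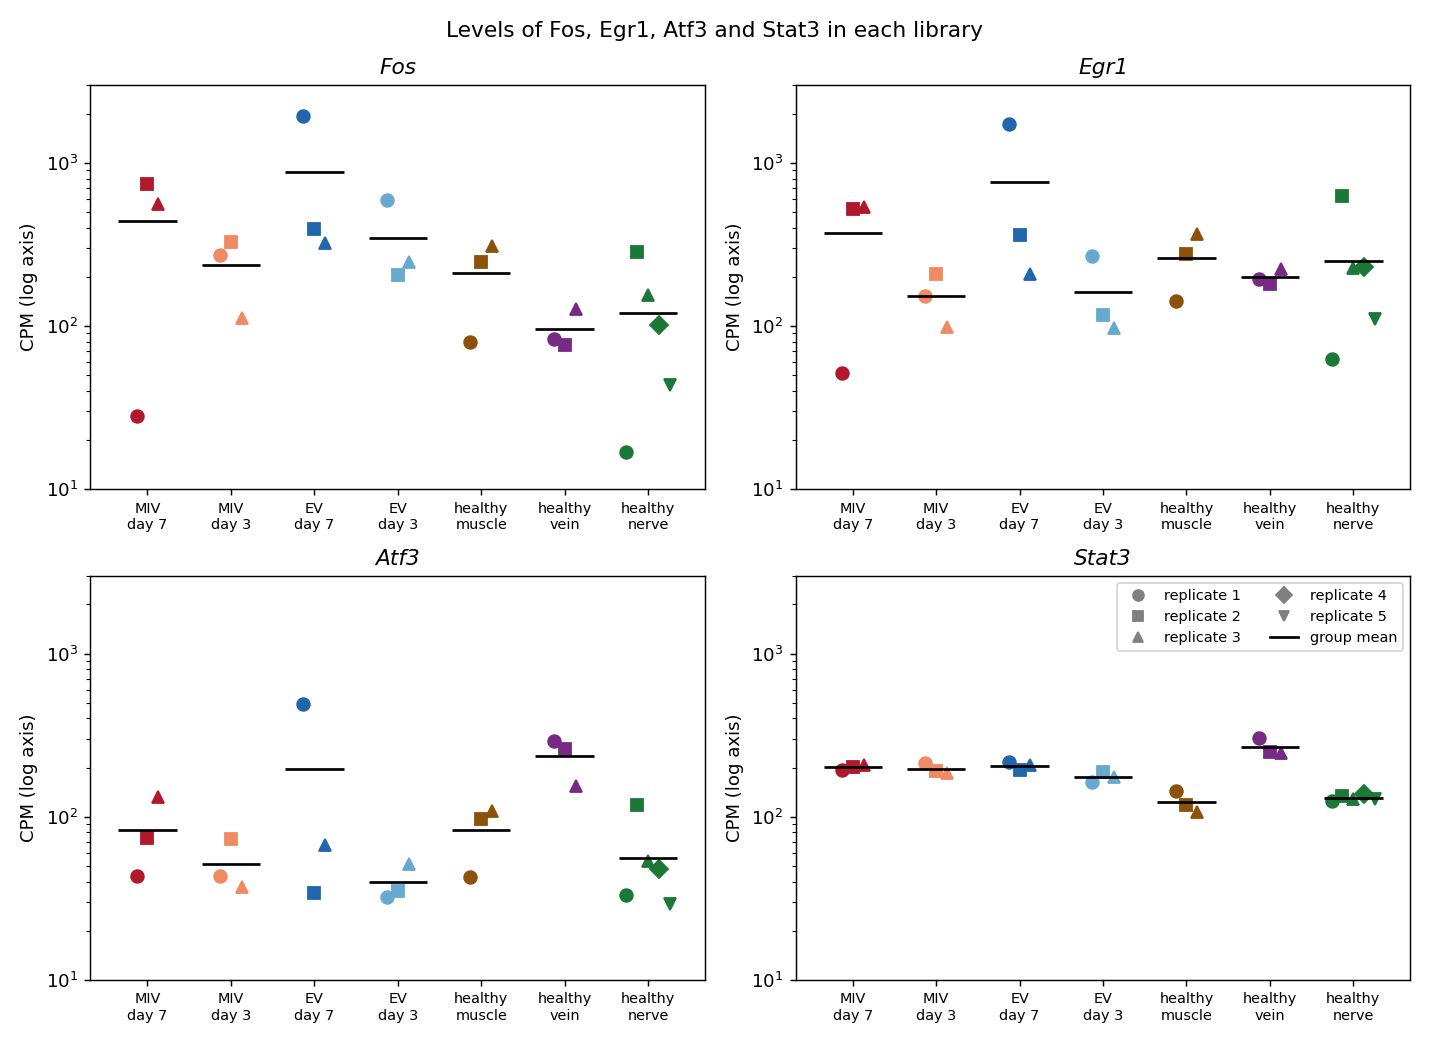
CPM on a log axis of Fos, Egr1, Atf3 and Stat3 in each of the 23 libraries by group, with the marker shape giving the replicate number and the black line the group mean. Fos runs from 17.0 to 1924 CPM and Stat3 from 106 to 304 CPM, and EV day 7 replicate 1 is the highest library for Fos, Egr1 and Atf3.

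Egr1 followed the same libraries as Fos. It stood at 51.4, 523 and 535 CPM in MIV day 7 nerves and at 152, 209 and 98.7 CPM in MIV day 3 nerves. EV day 7 nerves held 1719, 361 and 209 CPM, and EV day 3 nerves held 268, 117 and 97.0 CPM. The lowest of all 23 libraries was MIV day 7 replicate 1 and the highest EV day 7 replicate 1, a ratio of 33.4. In healthy tissue Egr1 was 143, 277 and 366 CPM in muscle, 193, 180.3 and 224 CPM in vein, and 62.6 to 629 CPM in nerve with a median of 225 CPM. The vein libraries, which lay within 1.24-fold of each other, were the steadiest group. By group mean the order was EV day 7 (763 CPM ± 831), MIV day 7 (369.8 CPM ± 276), muscle (262 CPM ± 112), nerve (252 CPM ± 223, n = 5), vein (199 CPM ± 22.6), EV day 3 (160.5 CPM ± 93.4) and MIV day 3 (153 CPM ± 55.0; SD, n = 3 unless given), with overlap between all neighbours. Egr1 did not pass against healthy nerve in any of the 4 repaired groups in the edgeR fit. Its log2 fold change was 0.56 ± 0.73 in MIV day 7, -0.72 ± 0.76 in MIV day 3, 1.60 ± 0.73 in EV day 7 (adjusted p = 0.0776) and -0.65 ± 0.76 in EV day 3 (SE). The EV day 7 value passed when 1 of these libraries was left out: healthy nerve replicate 2 (2.28, adjusted p = 0.0158), EV day 7 replicate 3 (2.05, adjusted p = 0.0387) or MIV day 7 replicate 1 (1.60, adjusted p = 0.0471). Without EV day 7 replicate 1 it was 0.18 (adjusted p = 0.876). Against vein, EV day 7 was at 1.94 ± 0.86 (SE; edgeR adjusted p = 0.102), which passed with DESeq2 (adjusted p = 0.0464) and was 0.52 (adjusted p = 0.706) without EV day 7 replicate 1.

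Within groups, Fos and Egr1 moved together. The library with the most Fos was also the one with the most Egr1 in 6 of the 7 groups, and the library with the least was shared in 6 of 7. In MIV day 7 the order of the top replicates 2 and 3 differed, and in EV day 3 that of the bottom replicates 2 and 3. Sharing its highest library with Fos in at least 6 groups was seen for 65 of the other 15953 genes, or 0.407%, and for 66 genes (0.414%) with Egr1. Atf3 shared its highest library with Egr1 in 5 groups and with Fos in 4. Stat3 shared its highest library with Atf3 in 3 groups, with Egr1 in 2 and with Fos in 1. The lowest library of Atf3 was shared with Stat3 in 5 groups, and with Fos and Egr1 in 3 each. How many of all genes share a library in fewer than 6 groups was not counted.

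The spread between libraries of a group set Fos, Egr1 and Atf3 apart from Stat3. The pooled within-group SD of log2 CPM was 1.43 for Fos, 1.16 for Egr1, 0.94 for Atf3 and 0.12 for Stat3, against a median of 0.36 over the 15954 genes. Of all genes, 98.8% had a smaller SD than Fos, 96.3% a smaller SD than Egr1, 91.5% a smaller SD than Atf3, and 2.91% a smaller SD than Stat3. Without EV day 7 replicate 1 the SD was 1.39 for Fos, 1.06 for Egr1, 0.66 for Atf3 and 0.12 for Stat3. There 98.4%, 94.4%, 76.2% and 3.06% of genes had a smaller SD, in that order. The healthy tissues alone showed the same order, with SDs of 1.25 for Fos, 0.96 for Egr1, 0.71 for Atf3 and 0.14 for Stat3. Their median SD over all genes was 0.285. In them 98.4%, 94.9%, 85.5% and 17.1% of genes had a smaller SD, so Stat3 stood out less. In the 12 repaired libraries 1.08% of genes had a smaller SD than Stat3.

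**Figure D2:**
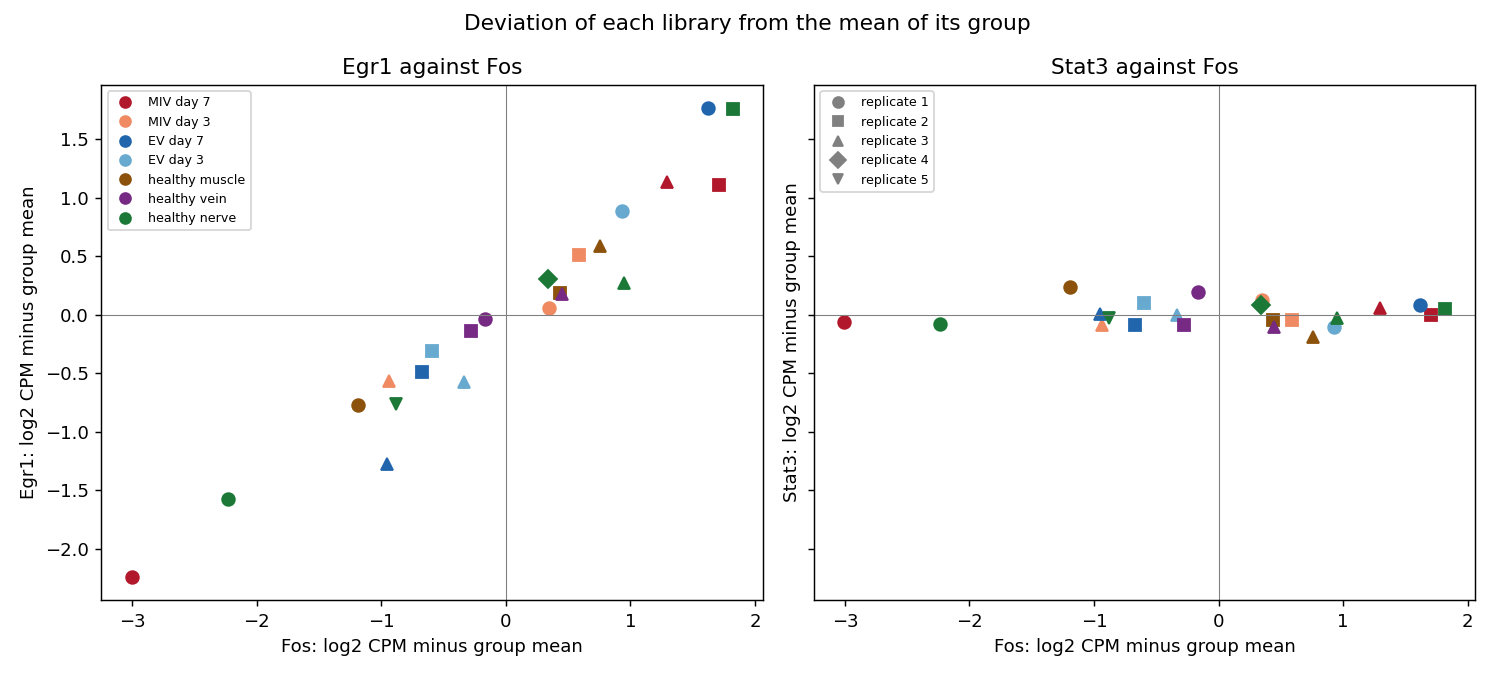
Each point is 1 of the 23 libraries, placed by its log2 CPM of Fos minus the group mean (x axis) and that of Egr1 (left) or Stat3 (right, same scale); colours are groups and shapes replicate numbers. Fos deviates by -3.01 to 1.82 and Egr1 moves with it, while Stat3 stays between -0.19 and 0.23.

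The libraries at the ends of the Egr1 range were looked at over all genes. EV day 7 replicate 1 had a median correlation of log2 CPM of 0.971 with the other EV day 7 libraries, the same value as replicates 2 and 3. In it 72 genes (0.451%) lay at least 4-fold above both other libraries of the group, and Fos, Egr1 and Atf3 were among them. In MIV day 7 replicate 1, 62 of the 15954 genes lay at least 4-fold below both others, Fos and Egr1 among them. In the same library 154 genes (0.965%) lay at least 4-fold above both others, with no member among them. Both libraries were picked by their Egr1 level, with which Fos moved, so finding Egr1 and Fos among these genes is no separate result.

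Atf3 was highest in healthy vein and in 1 repaired nerve. Its levels were 43.0, 73.6 and 133 CPM in MIV day 7 nerves and 43.3, 73.0 and 36.9 CPM in MIV day 3 nerves. EV day 7 nerves held 489, 34.1 and 67.2 CPM, and EV day 3 nerves held 32.1, 35.2 and 51.6 CPM. The 489 CPM of EV day 7 replicate 1 was the highest of all 23 libraries, and the other 11 repaired libraries lay between 32.1 and 133 CPM. Healthy muscle held 42.5, 96.2 and 108 CPM, healthy vein 292, 260.5 and 154 CPM, and healthy nerve 29.3 to 117 CPM with a median of 47.6 CPM. Apart from EV day 7 replicate 1, every library outside vein lay below the lowest vein library. By group mean the order was vein (236 CPM ± 72.1), EV day 7 (197 CPM ± 254, median 67.2 CPM), MIV day 7 (83.1 CPM ± 45.5), muscle (82.3 CPM ± 34.99), nerve (56.1 CPM ± 35.5, n = 5), MIV day 3 (51.1 CPM ± 19.3) and EV day 3 (39.6 CPM ± 10.4; SD, n = 3 unless given), and neighbours overlapped throughout.

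Atf3 was called higher in EV day 7 nerves than in healthy nerve, with a log2 fold change of 1.81 ± 0.62 (SE; edgeR adjusted p = 0.0224), although the libraries overlapped. Without EV day 7 replicate 1 the direction turned, to -0.15 (adjusted p = 0.85). The call was also lost without healthy nerve replicate 1 or 5 (adjusted p = 0.0514 and 0.0512) and in a fit of the 2 groups alone (adjusted p = 0.115). In the other repaired groups the log2 fold change against nerve was 0.56 ± 0.63 in MIV day 7, -0.14 ± 0.64 in MIV day 3 and -0.50 ± 0.65 in EV day 3 (SE), none of which passed. Relative to healthy vein, Atf3 was lower in MIV day 3 nerves, with a log2 fold change of -2.21 ± 0.74 (SE; adjusted p = 0.0175 in edgeR), and in EV day 3 nerves, with -2.57 ± 0.76 (adjusted p = 0.0079). The MIV day 3 call was lost without MIV day 3 replicate 1 (adjusted p = 0.0581) or replicate 3 (adjusted p = 0.0652). Against vein the day 7 values were -1.51 ± 0.73 in MIV (adjusted p = 0.0979) and -0.26 ± 0.71 in EV (adjusted p = 0.825). Without EV day 7 replicate 1 both passed, at -1.51 in MIV (adjusted p = 0.0239) and -2.22 in EV (adjusted p = 0.0149). Healthy vein held more Atf3 than healthy nerve, with a log2 fold change of 2.07 ± 0.63 (SE; adjusted p = 0.0125 in edgeR), with all 3 vein libraries above all 5 nerves. Healthy muscle stood at -1.52 ± 0.73 against vein (adjusted p = 0.0762), which passed with DESeq2 (adjusted p = 0.0458), in a fit of the 2 groups alone (adjusted p = 0.00873) and without EV day 7 replicate 1 or 2 (adjusted p = 0.0155 and 0.0413).

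Stat3 was higher in every repaired group than in healthy nerve, with little spread between libraries. Its levels were 192, 200.2 and 209 CPM in MIV day 7 nerves, 214, 190.4 and 185 CPM in MIV day 3 nerves, 217, 194 and 206 CPM in EV day 7 nerves, and 163, 188 and 175 CPM in EV day 3 nerves. Healthy nerve held 124 to 138 CPM with a median of 128 CPM. The 12 repaired libraries all lay above the 5 nerves. How many of all genes separate completely was not counted, here or in the other comparisons where libraries did not overlap. The log2 fold change was 0.62 ± 0.10 in MIV day 7 (edgeR adjusted p = 4.92e-05), 0.59 ± 0.10 in MIV day 3 (adjusted p = 5.72e-05), 0.66 ± 0.10 in EV day 7 (adjusted p = 3.17e-05) and 0.42 ± 0.10 in EV day 3 (adjusted p = 0.00144; SE throughout). Each of the 4 calls held in all 23 fits that left out 1 library and in the 6 other alternatives. The highest adjusted p over these alternatives was 0.000832 for MIV day 7, 0.000775 for MIV day 3, 0.000564 for EV day 7 and 0.0131 for EV day 3. By size, 45.6% of genes in MIV day 7, 38.0% in MIV day 3, 51.8% in EV day 7 and 28.2% in EV day 3 had a smaller absolute log2 fold change against nerve than Stat3.

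Healthy muscle held 143, 118 and 106 CPM of Stat3, and healthy vein held 304, 250.1 and 247 CPM, the highest group. Against muscle, Stat3 rose by 0.71 ± 0.12 in MIV day 7 nerves (SE; edgeR adjusted p = 2.58e-05) and by 0.68 ± 0.12 in MIV day 3 nerves (adjusted p = 3.46e-05). With scaling factors taken from genes that are not muscle-enriched these became 0.41 and 0.32 and stayed called (adjusted p = 0.00524 and 0.0215). Against vein, Stat3 fell by 0.41 ± 0.12 in MIV day 7 nerves, by 0.44 ± 0.12 in MIV day 3, by 0.38 ± 0.12 in EV day 7 and by 0.61 ± 0.12 in EV day 3 (SE; edgeR adjusted p = 0.00679, 0.00332, 0.0195 and 0.000227 in that order), and no repaired library overlapped with vein. The MIV day 7 call was lost without healthy vein replicate 1 (adjusted p = 0.054) and with the 2 groups fitted alone (adjusted p = 0.109). The EV day 7 call was lost without healthy vein replicate 1 (adjusted p = 0.128), without EV day 7 replicate 2 (adjusted p = 0.0808) and with the 2 groups fitted alone (adjusted p = 0.053). Among the healthy tissues, Stat3 was higher in vein than in nerve (1.03 ± 0.10 SE, edgeR adjusted p = 1.59e-07). It was lower in muscle than in vein (-1.13 ± 0.12 SE, edgeR adjusted p = 7.57e-08). With scaling factors from genes that are not muscle-enriched, muscle against vein became -0.71 and stayed called (adjusted p = 2.84e-05). Muscle against nerve was -0.10 ± 0.10 (SE; adjusted p = 0.431). That value turned to 0.31 and was called (adjusted p = 0.0133) with scaling factors from genes that are not muscle-enriched, and it was called at -0.27 (adjusted p = 0.0346) without healthy muscle replicate 1.

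By group mean, Stat3 ran in the order vein (267 CPM ± 32.2), EV day 7 (206 CPM ± 11.7), MIV day 7 (200.4 CPM ± 8.12), MIV day 3 (197 CPM ± 15.5), EV day 3 (175 CPM ± 12.4), nerve (130.6 CPM ± 5.75, n = 5) and muscle (122 CPM ± 18.7; SD, n = 3 unless given). EV day 7, MIV day 7 and MIV day 3 overlapped in their libraries, as did MIV day 3 and EV day 3, and nerve and muscle. In the main fit Stat3 is itself 1 of the 1127 genes called vein-enriched, with a log2 fold change over 1 in vein against both nerve and muscle. That label depends on the fit. Muscle against vein was -0.71 with scaling that leaves out muscle-enriched genes, and vein against nerve went down to 0.93 with 1 library left out. The other vein-enriched genes took 5.05% to 7.83% of counts in MIV day 7 and 5.19% to 6.36% in MIV day 3. They took 9.18% to 9.76% in EV day 7 and 5.74% to 7.34% in EV day 3, against 16.3% to 18.6% in vein and 3.37% to 3.98% in nerve. Nerve-enriched genes took 4.19% to 6.60% of counts in the 12 repaired nerves, against 25.0% to 28.7% in healthy nerve. The part of either tissue share in the Stat3 level was not tested.

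**Figure D3:**
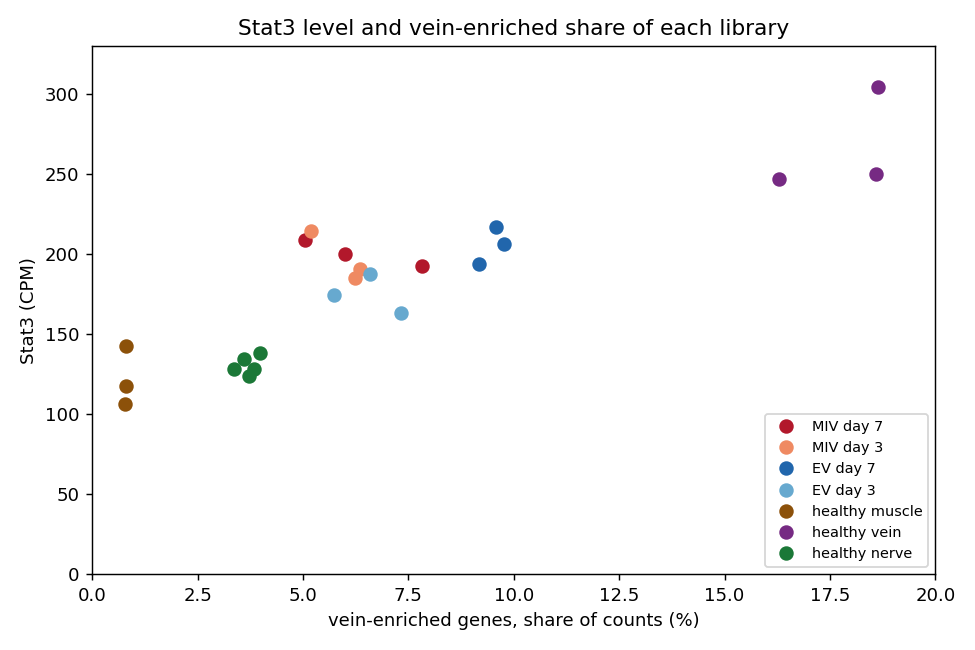
Stat3 in CPM (y axis) against the percentage of counts taken by the vein-enriched genes other than Stat3 (x axis), 1 point per library, coloured by group. The repaired libraries sit between healthy vein (247 to 304 CPM at 16.3% to 18.6%) and healthy nerve (124 to 138 CPM at 3.37% to 3.98%), and the EV day 7 libraries, at 9.18% to 9.76%, overlap in Stat3 with MIV libraries at 5.05% to 7.83%.

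The members called in each comparison are set beside the share of all genes called. In MIV day 7 against nerve 1 of the 4 members was called higher, beside 29.2% of the 15954 genes tested, and in MIV day 3 it was 1 of 4, beside 30.9%. In EV day 7 against nerve 3 of 4 were called higher, beside 24.1%, and 1 of 4 without EV day 7 replicate 1. In EV day 3 against nerve it was 1 of 4, beside 30%. The median log2 fold change of the members against nerve was 0.59 in MIV day 7, 0.23 in MIV day 3, 1.71 in EV day 7 and -0.04 in EV day 3, and that of all genes lay between -0.01 and 0.05. Against muscle, 1 of 4 was called higher in MIV day 7 (34.7% of genes) and 1 of 4 in MIV day 3 (33.5%). Against vein, 1 of 4 was called lower in MIV day 7 (20.4%), 2 of 4 in MIV day 3 (25.8%), 1 of 4 in EV day 7 (13.5%), where another 1 was higher (15%), and 2 of 4 in EV day 3 (25.6%). Between healthy tissues, vein exceeded nerve for 2 of 4 (18.9%), muscle was below vein for 1 of 4 (33.4%), and muscle against nerve called 0 of 4, beside 67.3% in either direction. In the last of these 0 members passed at an unadjusted p under 0.05 and 0 with DESeq2.

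**Figure D4:**
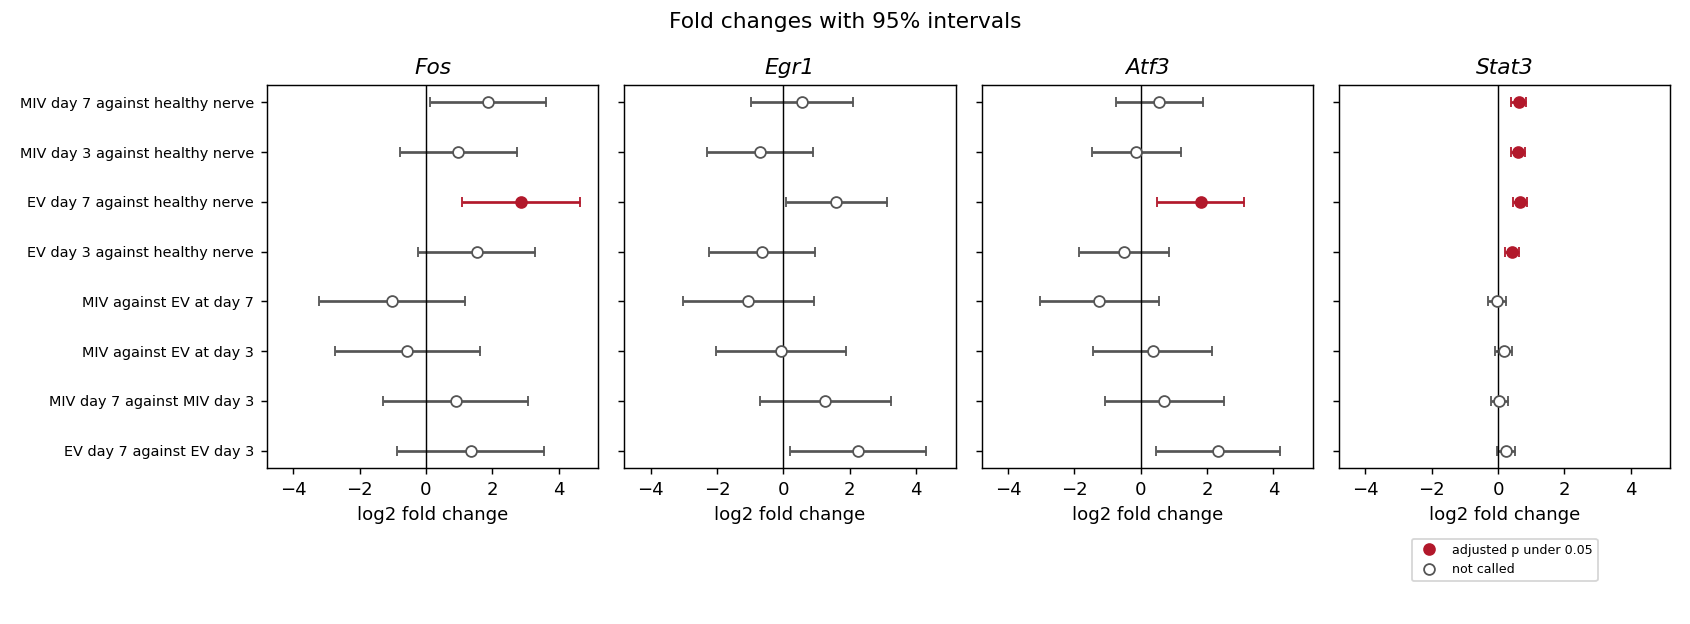
Log2 fold changes (points) with 95% intervals (bars) of the 4 genes in 8 comparisons from the edgeR fits; filled red points passed an adjusted p of 0.05. Stat3 passes against healthy nerve in all 4 repaired groups with narrow intervals, Fos and Atf3 pass in EV day 7 alone, and no point passes between MIV and EV or between the days.

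MIV was set against EV within each day, which bears on the title's question of what muscle fibres contribute soon after repair. EdgeR called 0 of the 4 members at day 7 and 0 at day 3, where it called 0% of the 15036 genes. At an unadjusted p under 0.05 the count of members was 0 on both days, and DESeq2 called 0. Over all genes an unadjusted p under 0.05 was seen for 2514 at day 7 and 775 at day 3, and DESeq2 called 824 and 239. Over all genes, the deviations of same-numbered MIV and EV libraries correlated weakly at day 7 (0.209, 0.189 and 0.167). No label says that the numbers pair libraries. Fos and Egr1 deviated in opposite directions in each same-numbered pair. In replicate 1 Fos stood at -3.01 in MIV and 1.62 in EV, and Egr1 at -2.24 and 1.76 (log2 CPM minus the group mean). In an alternative fit with replicate number within each day as a block, edgeR called 81 genes at day 7 (72 higher and 9 lower in MIV). None of the 4 members was among them (adjusted p = 0.85 to 0.926). The fold changes and intervals that follow are from the main fit without a block. At day 7 the log2 fold change of MIV over EV was -1.01 for Fos (95% interval -3.21 to 1.19), -1.06 for Egr1 (-3.035 to 0.92), -1.24 for Atf3 (-3.05 to 0.565) and -0.04 for Stat3 (-0.31 to 0.23). The first 3 rested on EV day 7 replicate 1, without which they were 0.28 for Fos, 0.36 for Egr1 and 0.71 for Atf3. They also shrank without MIV day 7 replicate 1, to -0.46 for Fos, -0.54 for Egr1 and -0.94 for Atf3. At day 3 the values were -0.56 for Fos (-2.75 to 1.63), -0.07 for Egr1 (-2.03 to 1.89), 0.37 for Atf3 (-1.42 to 2.16) and 0.17 for Stat3 (-0.10 to 0.43). For Fos, Egr1 and Atf3 the intervals span more than 3 log2 units, those of Stat3 stay between -0.31 and 0.43 on both days. Over both days 0 of 4 members passed, beside 1.54% of genes, again with 0 at an unadjusted p under 0.05 and 0 with DESeq2. The difference of the MIV effect between day 7 and day 3 called 0 of 4 members and 0% of genes, with 0 members at an unadjusted p under 0.05 and 0 with DESeq2.

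Between day 7 and day 3 no member passed with edgeR in either series. In MIV the log2 fold change of day 7 over day 3 was 0.89 ± 0.99 for Fos, 1.27 ± 0.90 for Egr1, 0.72 ± 0.81 for Atf3 and 0.04 ± 0.12 for Stat3 (SE). All had an unadjusted p above 0.05, DESeq2 called 0 of the 4, and edgeR called 15.5% of all genes. In EV it was 1.34 for Fos (adjusted p = 0.368), 2.25 ± 0.93 for Egr1 (SE; adjusted p = 0.111), 2.33 ± 0.85 for Atf3 (adjusted p = 0.0774) and 0.25 ± 0.12 for Stat3 (adjusted p = 0.175), beside 19.6% of genes called. There Atf3 and Egr1 had an unadjusted p under 0.05, and DESeq2 called both (adjusted p = 0.0117 and 0.0257). Without EV day 7 replicate 1 the edgeR values were 0.05 for Fos (adjusted p = 0.983), 0.84 for Egr1 (adjusted p = 0.533) and 0.37 for Atf3 (adjusted p = 0.657). In MIV without MIV day 7 replicate 1 they were 1.44 for Fos, 1.78 for Egr1 and 1.02 for Atf3, none of which passed. Atf3 passed in EV without EV day 7 replicate 2 (2.83, adjusted p = 0.0351) and in the fit over all 23 libraries (adjusted p = 0.0264). For Stat3 the 3 EV day 7 libraries lay above the 3 EV day 3 libraries, and for the other members they overlapped. The Stat3 difference did not pass, and how many of all genes separate in this way was not counted. Whether the change over time differed between MIV and EV is the difference of effects given above, which did not pass for any member.

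Over the 23 libraries, the gene with the most similar log2 CPM profile was ENSRNOG00000054344 for Fos (Pearson r = 0.92), ENSRNOG00000058388 for Egr1 (r = 0.90), ENSRNOG00000026293 for Atf3 (r = 0.85) and ENSRNOG00000003121 for Stat3 (r = 0.91). These are descriptions over libraries that share their tissue, group and depth scaling. Among the other 15953 genes, Egr1 ranked 4 in likeness to Fos (r = 0.82) and Fos ranked 5 in likeness to Egr1. Atf3 ranked 22 for Egr1 (r = 0.61) and 2013 for Fos (r = 0.34). Stat3 ranked 4495 for Fos (r = 0.18) and 4209 for Egr1 (r = 0.085). For Atf3, Stat3 ranked 643 (r = 0.46), ahead of Fos at 1574.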

How the data were processed

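Per the labels' protocols, poly-T beads took the mRNA out of 350 ng of TRIzol-extracted RNA. The Illumina libraries were non-directional, so strand is not marked and reads of overlapping antisense genes cannot be told apart. CASAVA and HISAT2 are named in the submitters' processing notes. For the counter, build and annotation nothing is stated: they were not given in the sources used here. What the authors deposited is a single table of unnormalised counts by Ensembl identifier, whose 23 columns each matched a library title.

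The 4 members, the gene lists and the tests were chosen with earlier results of these data known. The lists of other pathway genes and tissue markers, given by symbol, matched 0 identifiers. The tests ran in edgeR 4.0.16 under R 4.3.3 (filterByExpr at 10 counts, total 15, TMM, robust quasi-likelihood fit, 1 coefficient per group). Comparisons with healthy tissue used all 23 libraries (biological coefficient of variation 31.4%) and those among repaired nerves the 12 repaired ones (37.1%). Log2 CPM used a prior count of 2. SEs are the log2 fold change over the root of the F statistic. The genes named as most alike had the highest Pearson r, 1 identifier a member. A gene was tissue-enriched where 1 healthy tissue exceeded each of the others by over 1 log2 unit at an adjusted p below 0.05. Alternatives were DESeq2 1.42.0, its size factors, no filter, scaling without muscle-enriched genes, other sets of libraries in the fit, replicate blocks and leaving out each library. The fits were also run on simulated counts with known changes, drawn from group means and the dispersion of each gene. No single deviating library was simulated, and no result here rests on that run. The main tests used no replicate block, and no label says that replicate numbers pair libraries. Blocks on replicate number, alone or within each day, were alternatives. At day 7 the deviations of same-numbered MIV and EV libraries correlated across genes at 0.209, 0.189 and 0.167. In every other comparison at least 1 pair was under 0.1. All 3 EV day 7 libraries also correlated best with the healthy vein library of their own number, although the tissues differ and the values were low (0.063, 0.043 and 0.116). The same was seen for MIV day 7 with healthy muscle (0.067, 0.052 and 0.028). It was also seen for healthy muscle with healthy nerve replicates 1 to 3 (0.004, 0.019 and 0.028).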

Additional observations from a re-analysis of the deposited data

Results flagged for a closer look

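Atf3 in healthy nerve replicate 2, at 117 CPM, lay above the other 4 nerves, which held 29.3 to 53.4 CPM. On the CPM scale its gap to the nearest library was 0.726 of the group's range, just past Dixon's critical value of 0.71 for 5 libraries. Each of the 4 genes was tested at both ends with no adjustment for the number of tests. On log2 CPM, the scale of the spreads above, this nerve stood at 6.87, the next at 5.74 and the lowest at 4.88. The rule was not applied on that scale, so the flag holds for CPM only. The same library was the highest nerve for Fos (284 CPM, gap 0.482 of the range) and for Egr1 (629 CPM, gap 0.703), both under the critical value. Its Stat3 level, 135 CPM, lay within the range of the other nerves. Groups of 3 libraries, which include EV day 7 and MIV day 7, were left out of this rule, so the absence of a flag there says nothing.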

How the results depend on the processing

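Of 1952 member values in an alternative, 1908 kept their side of the threshold, 38 of them with a change of sign and no call either way. Another 20 lost a call, 22 gained one and 2 changed both sign and side of the threshold. Atf3 in EV day 7 against nerve turned and lost its call without EV day 7 replicate 1 (-0.15, of a range of -0.15 to 2.31 over the libraries left out). Stat3 in muscle against nerve, not called in the main fit, turned and was called with scaling that leaves out muscle-enriched genes (0.31). Of 488 counts over all genes, 448 stayed within 1.5 times and 40 did not. The cause was not tested. For MIV against EV at day 7 edgeR called 0 genes, DESeq2 824, the fit over 23 libraries 1135 and the replicate block within each day 81, and leaving out 1 library gave 0 to 688. At day 3 these were 0, 239, 160 and 4, and 0 to 70. Over both days they were 232, 820, 975 and 145, with 109 under a replicate block by number alone, and 0 to 698. EV day 7 against EV day 3 called 2947 genes, 4533 in the fit over 23 libraries and 1390 to 4030 with 1 library left out. MIV day 7 against MIV day 3 called 2327, 4153 in the fit over 23 libraries, 3607 with DESeq2 and 804 to 3569. The difference of the MIV effect between days called 0, 16 with DESeq2 and 0 to 3. MIV day 7 against vein called 7326 and 4353 with the 2 groups alone.

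The replicate block by number alone ended 4 edgeR calls. They were Atf3 in EV day 7 against nerve (1.58, adjusted p = 0.156) and Atf3 in vein against nerve (1.81, adjusted p = 0.0972). The others were Fos in EV day 7 against nerve (2.73, adjusted p = 0.0784) and against vein (3.27, adjusted p = 0.0508). That block changed no other member call, and the block within each day changed none in MIV against EV. Scaling without muscle-enriched genes moved the median of all genes by -0.29 and -0.34 for MIV day 7 and day 3 against muscle, by 0.39 for muscle against nerve, by 0.39 for muscle against vein and by 0.11 for MIV day 7 against vein. The share of calls that were higher became 39.9% against 50.4% for MIV day 3 against muscle, 59.1% against 46.8% for muscle against nerve and 60.9% against 47.9% for muscle against vein.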
